A study of Mus musculus with 16 samples.

Results

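The flanks described here surround endogenous retroviruses outside the IAP class that were picked as candidates for variable methylation between genetically identical mice. The study's sheet of candidates holds 33 elements, of which 29 lie on chromosomes 1 to 19 and were used, and 4 X-linked elements were left out. DNA within 5 kb of either edge was laid out in 580 bins of 500 bp, and 371 bins at 29 of 29 elements entered the comparison because they held 3 or more CpGs and in at least 5 B cell and 5 T cell libraries 20 or more methylation calls. A further 150 bins had fewer than 3 CpGs and 59 had too few calls. Over the same chromosomes, 2212016 bins met these criteria. The candidates were split by a bisulphite pyrosequencing assay of ear tissue: 14 autosomal elements had a range of 10 percentage points or more between mice and are called ear-variable below, and 15 did not and are called the other elements.

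The data were whole-genome bisulphite libraries of splenic lymphocytes from C57BL/6J mice aged 6 to 8 weeks. There were 8 libraries of naive CD4+CD62L+ T cells and 8 of resting CD43- B cells, isolated by magnetic-activated sorting. Within each cell type, 4 libraries came from females and 4 from males, and 4 were standard bisulphite (BS) libraries and 4 oxidative bisulphite (oxBS) libraries. BS reads 5-methylcytosine and 5-hydroxymethylcytosine alike, whereas oxBS reads only 5-methylcytosine. The labels name no mouse, and the DNA was divided for oxidation after adapter ligation, so a BS and an oxBS library may share animals and the p-values measure the spread between libraries, which may in part be technical. Libraries held between 123693203 and 171130063 calls, with 5.83 to 8.07 calls per autosomal CpG.

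Endogenous retroviruses are remnants of viral insertions flanked by long terminal repeats, and in somatic cells most are silenced in part by methylation of their CpGs. ERV1, ERVK, ERVL and the related ERVL-MaLR are families of such elements, and the MaLR copies are old and mostly reduced to a single long terminal repeat. Away from start sites of genes the mammalian genome is largely methylated, and cell type-specific enhancers stand out as short stretches with lower methylation in the cells that use them. The ear-variable elements were 4 ERV1, 9 ERVK and 1 ERVL copies. The other elements were 2 ERV1, 5 ERVK, 4 ERVL and 4 ERVL-MaLR copies. The other elements were shorter, with a median of 406 bp against 864 bp, and their median distance to the nearest start site of a coding gene was 9051 bp against 15003 bp.

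The sequences below come from 5 called bins, 4 at other elements that are among the 10 largest differences between B and T cells, and 1 at the ear-variable element ERV-Cdkl4. From each bin the stretch with the most CpGs is printed, whatever their levels, at most 300 bases long including a margin of 10 bases at each end. Each is reference sequence of the mm10 plus strand from 5′ to 3′, and capitals mark the CpGs whose methylation was counted.
ERV-Poc1b, chr10:99116962-99117178: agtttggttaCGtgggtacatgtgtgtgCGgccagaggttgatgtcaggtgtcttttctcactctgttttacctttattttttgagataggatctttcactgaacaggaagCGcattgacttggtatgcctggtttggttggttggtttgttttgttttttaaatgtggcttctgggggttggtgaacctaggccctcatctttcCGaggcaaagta
ERV-13, chr4:59814193-59814415: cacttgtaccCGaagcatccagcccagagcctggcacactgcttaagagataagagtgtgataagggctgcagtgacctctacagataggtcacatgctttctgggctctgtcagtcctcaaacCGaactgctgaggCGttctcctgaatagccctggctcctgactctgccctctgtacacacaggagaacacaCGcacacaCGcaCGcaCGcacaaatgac
ERV-24, chr7:49732028-49732314: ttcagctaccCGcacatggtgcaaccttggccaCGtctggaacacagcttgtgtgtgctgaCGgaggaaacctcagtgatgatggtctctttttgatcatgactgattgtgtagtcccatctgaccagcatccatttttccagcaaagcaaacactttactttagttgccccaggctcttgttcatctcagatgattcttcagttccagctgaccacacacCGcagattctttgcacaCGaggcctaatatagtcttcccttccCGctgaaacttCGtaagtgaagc
ERV-12, chr6:48674560-48674633: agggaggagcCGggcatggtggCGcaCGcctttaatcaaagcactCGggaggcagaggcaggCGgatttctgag
ERV-Cdkl4, chr17:80565817-80566085: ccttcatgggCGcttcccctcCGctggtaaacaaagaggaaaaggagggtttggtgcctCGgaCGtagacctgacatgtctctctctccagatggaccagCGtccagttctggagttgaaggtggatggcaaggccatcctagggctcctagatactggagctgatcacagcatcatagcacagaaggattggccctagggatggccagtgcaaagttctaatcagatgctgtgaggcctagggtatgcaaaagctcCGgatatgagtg
In the ERV-Poc1b stretch, 184 of 206 calls at the 4 CpGs were methylated in B cells over all libraries and 0 of 239 in T cells. This allows a share of up to 1.26% in T cells by counting error alone, with every call taken as independent. The remaining CpG of that bin, outside the stretch, was methylated in T cells at 39.3% of 28 calls and in B cells at 96.7% of 30. In the ERV-13 stretch the direction was the opposite, with 64 of 439 calls methylated in B cells and 617 of 726 in T cells. In that stretch the first CpG differed least, with a pooled level of 29.4% in B cells against 37.3% in T cells. The ERV-24 stretch had 124 of 490 calls methylated in B cells and 510 of 572 in T cells, and the ERV-12 stretch 169 of 217 in B cells and 35 of 221 in T cells. The ERV-Cdkl4 stretch was mostly methylated in both cell types, at 352 of 377 calls in B cells and 325 of 425 in T cells. The CpGs of that bin that differed most lie outside the stretch, with pooled levels of 98.2% and 91.3% in B cells against 53.7% and 55% in T cells.

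The cell labels were checked at promoter windows of marker genes. The 7 B cell markers reported, such as Cd79a and Ms4a1, were all lower in B cells with no overlap of libraries, and the means of these windows ran from 0.181% to 28.4% in B cells, and those in T cells from 9.65% to 92.8%. For T cell markers, 7 of 8 were lower in T cells with no overlap, Cd28 being the exception, with means from 51.7% to 94.1% in B cells, and those in T cells from 1.54% to 90.1%. Of 4 myeloid markers, 0 separated the cell types, with means from 11.8% to 90.2% in B cells, and those in T cells from 12.4% to 95.01%. Of 5 natural killer and CD8 T cell markers, Cd8a, Cd8b1 and Nkg7 were lower in T cells, with means over the list from 41.5% to 88.8% in B cells, and those in T cells from 15.3% to 89.4%. The part of other cells in the differences below was not tested.

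Most flanking DNA was highly methylated, though less often than all bins tested. The mean of the B and T cell levels was 80% or more in 243 of the 371 flank bins (65.5%), against 82.1% of all bins tested, and it was 20% or less in 27 bins (7.28%), against 3.35% of all bins. The remaining 101 bins (27.2%) lay between, against 14.5% of all bins. Medians over flank bins were 89.6% in B cells against 88.8% in T cells, and over all bins 92.4% and 91.8%. In bulk DNA an intermediate level can mean partly methylated cells or a mixture of methylated and unmethylated cells, which these values do not tell apart.

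Averaged over each element's bins, the level at ear-variable elements was 79.5% ± 12.7 in B cells against 78.6% ± 13.3 in T cells (SD over 14 elements). At the other elements it was 78.5% ± 14.3 in B cells against 76.3% ± 15.5 in T cells (SD over 15 elements). The 2 classes overlapped in level, from 42.0% to 92.3% and from 54.6% to 98.6% in B cells. The gap between class means was 1.00 points in B cells, and 11.8 points where 40 calls per library were required. Without ERV-6, whose single bin lacked a value in 1 library, the gap computed per library averaged 2.77 ± 1.27 points for B cells against 4.26 ± 1.41 for T cells (SD, n = 8 each). In the plot of level by distance, the bins next to the edge averaged 68.7% in B cells against 66.2% in T cells over the 40 bins of both classes, and the farthest bins, from 4500 to 5000 bp, 80.5% and 79.9% over 31 bins. At ear-variable elements the bins next to the edge were the lowest of the 10 distances in both cell types, at 65.5% and 64.6%. At the other elements they were not, with the lowest B cell mean from 500 to 1000 bp, 65.9%, and the lowest T cell mean from 3000 to 3500 bp, 65.96%. Inside the elements themselves, where the study looked for variability in these same libraries, levels were 62.1% ± 18.1 in B cells at ear-variable elements and 62.6% ± 12.9 at the other elements (SD over 14 and 15 elements).

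**Figure D1:**
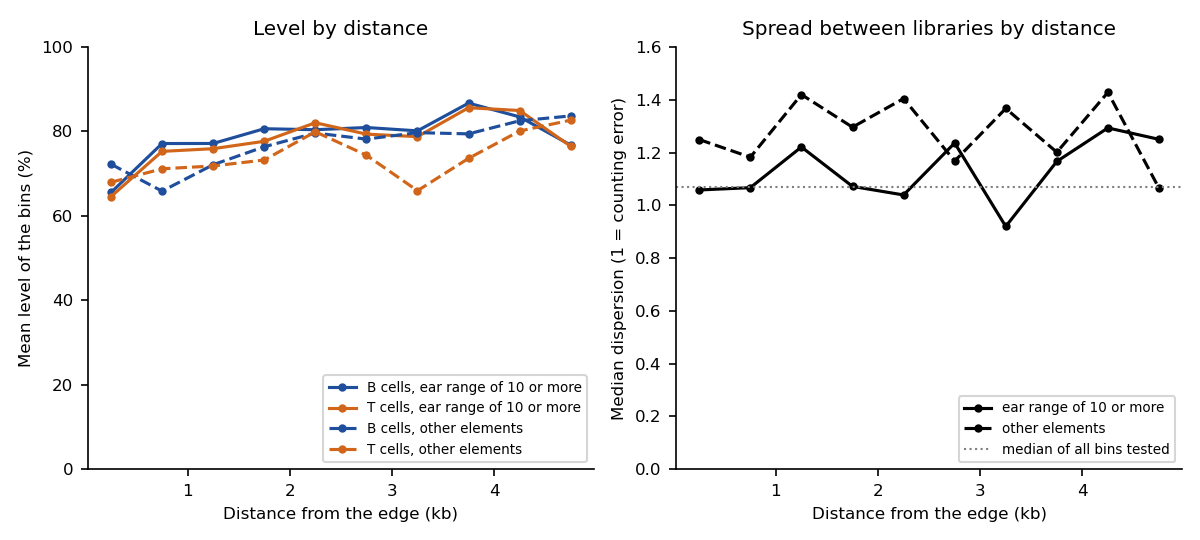
Left, mean level in percent of the flank bins at each distance from the edge, for B and T cells (colours) and ear-variable and other elements (solid and dashed lines). Right, median dispersion between libraries, drawn without the floor of 1 (the value for independent calls), with the median of all bins tested as a dotted line. Lines of the 2 classes cross in both panels, and over both classes the bins next to the edge average 68.7% in B cells.

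Start sites of genes were among the least methylated bins. Of the 8 flank bins that held an annotated start site, 6 were at 20% or less, of 27 such bins in all, and 0 were called between B and T cells in the comparison below. The lowest 3 of the 27, taking 1 per element, were at the starts of Gimap9, Spidr and Ttc26. The bin 1500 to 2000 bp beyond the higher-coordinate edge of ERV-12, chr6:48675988-48676487, held the start of Gimap9, a GTPase gene of the lymphocyte-expressed GIMAP family, and had 0.26% ± 0.687 in B cells (SD, n = 7) and 0% in all 8 T cell libraries. Next to ERV-9, the start of Spidr, which encodes a DNA repair scaffold protein, had 0.322% ± 0.632 in B cells against 0.126% ± 0.175 in T cells (SD, n = 8 each). Next to ERV-2, the start of Ttc26, an intraflagellar transport gene, had 0.122% ± 0.234 in B cells against 0.274% ± 0.455 in T cells (SD, n = 8 each). Differences at these 3 bins were smaller than the spread between libraries (two-sided exact permutation p = 0.933, 0.505 and 0.518). Among ear-variable elements, ERV-Fbxo2 had the lowest mean flank level of its class, 42.0% in B cells against 42.1% in T cells, and its lowest 3 bins lay over exons of Fbxo2, an F-box gene. The bin next to the lower-coordinate edge of ERV-Csf2ra had 14.7% in B cells against 10.5% in T cells, but also a median of 697 calls per library, against 42.5 over all flank bins, and the part of this depth in its level was not tested.

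B and T cells were then compared bin by bin, to ask whether the DNA around these elements was methylated in a cell type-specific way. A quasi-binomial logistic model on methylated and unmethylated calls, with sex and assay as covariates, was fitted to all 2212016 bins, and a bin was called when its p, adjusted by the Benjamini-Hochberg procedure, was under 0.05 and the library means differed by 20 points or more. Of the 371 flank bins, 29 were called (7.82%), at 12 elements, whereas 3.11% of all bins tested were called. The study picked the elements by the range at their edges in these same libraries. Flank bins also lay more often between 20% and 80%, in 27.2% against 14.5% of all bins. The part of either in the higher share was not tested. Of the 68875 bins called over all bins tested, 43914 were higher in B cells and 24961 in T cells (1.99% and 1.13% of all bins). Among the 29 flank calls, 16 had the higher level in B cells and 13 in T cells. Without ERV-Poc1b, left out after its values were seen, the counts were 10 and 13. Library levels of B and T cells did not overlap in 27 of the 29 called flank bins. Over all bins tested they did not overlap in 59114 of the 68875 called, or 2.67% of all bins. Without the limit on size, 48 flank bins had an adjusted p under 0.05, beside 6.07% of all bins, and 85 (22.9%) an unadjusted p under 0.05, beside 14.1% of all bins. Over the 371 bins the median difference, B minus T, was 0.46 points and the median size of the difference 2.46 points, against 0.40 and 1.82 points over all bins. In BS libraries alone the median difference over flank bins was -0.368 points, and in oxBS libraries alone 1.14 points.

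Fewer bins were called around ear-variable elements than around the other elements. Of 191 bins at ear-variable elements 3 were called (1.57%), and of 180 bins at the other elements 26 (14.4%), spread over 9 of the 15. The 4 other elements with the most calls carried much of this, and without ERV-Poc1b, ERV-12, ERV-13 and ERV-23, left out after their values were seen, 7 of 121 bins at the other elements were called (5.79%). The calls were also counted by family, a grouping chosen after these values were seen. The 8 ERVL and ERVL-MaLR copies among the other elements held 24 of the calls in 117 bins (20.5%), each of the 8 with at least 1. The 7 ERV1 and ERVK copies among the other elements had 2 calls in 63 bins (3.17%), both at ERV-21, a share near that of all bins. The single ear-variable ERVL copy, ERV-Scn11a, had 0 calls in 18 bins, and the 13 ear-variable ERV1 and ERVK copies had the 3 calls of their class in 173 bins (1.73%). Family and ear class thus cannot be told apart in these counts, and bins of 1 element are neighbours rather than independent regions, with ERV-Poc1b, ERV-13, ERV-12 and ERV-23 holding 6, 5, 4 and 4 of the 29. No difference between classes was tested.

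**Figure D2:**
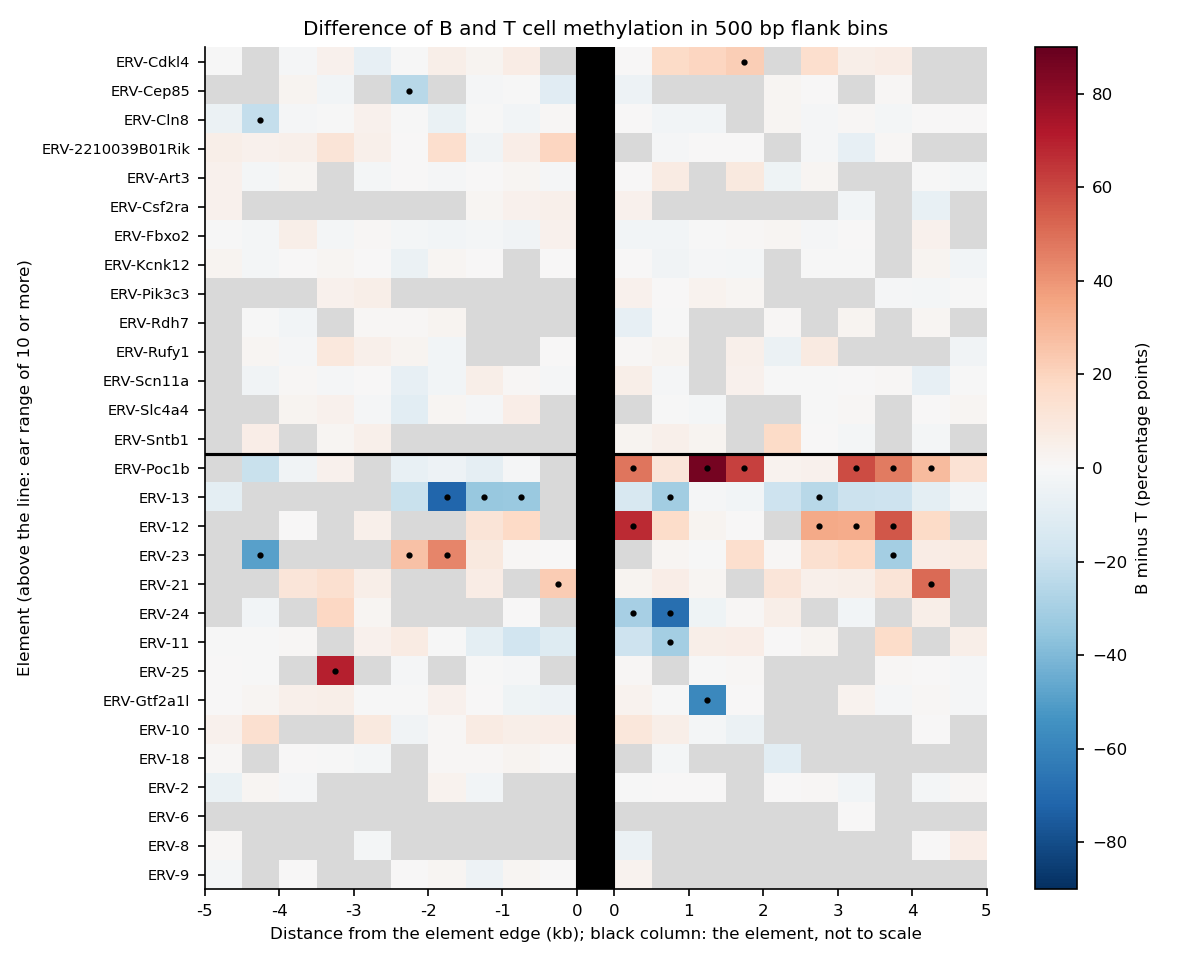
Difference of mean methylation, B minus T in percentage points, in each 500 bp bin (columns, by distance from the edge in kb, negative on the lower-coordinate side) for each element (rows). Dots mark the 29 called bins, grey bins did not meet the criteria, and the line separates ear-variable elements above, with 3 called bins, from the other elements below, with 26.

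The most called bins at 1 element lay beyond ERV-Poc1b, an ERVL-MaLR copy of 177 bp at chr10:99115529-99115705 in an intron of Poc1b, which encodes a centriole protein. On its higher-coordinate side 6 bins were called, all higher in B cells and all in Poc1b introns. In the bin from 1000 to 1500 bp (chr10:99116706-99117205, 5 CpGs), B cell libraries ranged from 81.0% to 100% around a median of 90.5%, and T cell libraries from 0% to 9.68% around a median of 3.03%. The groups did not overlap, with means of 90.5% ± 7.11 in B cells against 4.20% ± 3.82 in T cells (SD, n = 7 each). The difference of 86.3 points was the largest of all flank bins (quasi-binomial adjusted p = 2.04e-06; two-sided exact permutation, p = 0.000583, the lowest value possible for 7 and 7 libraries). In the next bin, from 1500 to 2000 bp, B cells had 89.2% ± 3.84 and T cells 27.3% ± 14.5 (SD, n = 8 each), with T cell libraries from 10.2% to 52.8%. The bin from 3000 to 3500 bp had 92.7% ± 2.80 in B cells against 33.7% ± 9.88 in T cells (SD, n = 8 each). Both bins separated the libraries fully (adjusted p = 2.01e-06 and 2.02e-07 by the quasi-binomial model; exact permutation p = 0.000155 for each, the smallest that 8 against 8 libraries allow). Between these stretches the bins from 2000 to 3000 bp were not called and were highly methylated in both cell types, at 94.8% and 97.8% in B cells and 92.0% and 93.6% in T cells. On the lower-coordinate side 7 bins were measured and 0 called. The element itself had 64.6% ± 11.9 in B cells against 23.5% ± 18.0 in T cells (SD, n = 7 B cell and 8 T cell libraries).

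ERV-12, an ERVL copy of 214 bp at chr6:48674274-48674487, lies 1749 bp from the start of Gimap9. The bin next to its higher-coordinate edge (chr6:48674488-48674987) had B cell libraries from 63.0% to 90.5%, median 84.8%, and T cell libraries from 4.35% to 23.3%, median 15.9%. These did not overlap, and means were 81.3% ± 9.63 in B cells (SD, n = 7) against 14.5% ± 8.81 in T cells (SD, n = 6), a difference of 66.8 points (quasi-binomial adjusted p = 0.000177; two-sided exact permutation, p = 0.00117, the lowest value possible). All 5 of its CpGs lie in a stretch of 74 bases. The reference soft-masks 37.2% of the bin as repeat, and whether that part holds the CpGs was not examined. After the unmethylated start site, 3 further bins over the body of Gimap9 were called, all higher in B cells. The last of them, from 3500 to 4000 bp, had 87.0% ± 5.15 in B cells against 31.1% ± 9.39 in T cells (SD, n = 5 each; quasi-binomial adjusted p = 0.00537; two-sided exact permutation, p = 0.00794, the lowest value possible), and in its 5 libraries each the levels ran from 80% to 94.3% and from 15.4% to 38.1%. Leaving out any of these 10 libraries takes that bin below the minimum of 5 per cell type. The bins from 2500 to 3500 bp were partly methylated in B cells, at 39.0% and 38.3%, and low in T cells, at 5.04% and 4.80%. Over its 12 bins ERV-12 had the largest gap between cell types of the 29 elements, 59.3% in B cells against 37.5% in T cells.

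**Figure D3:**
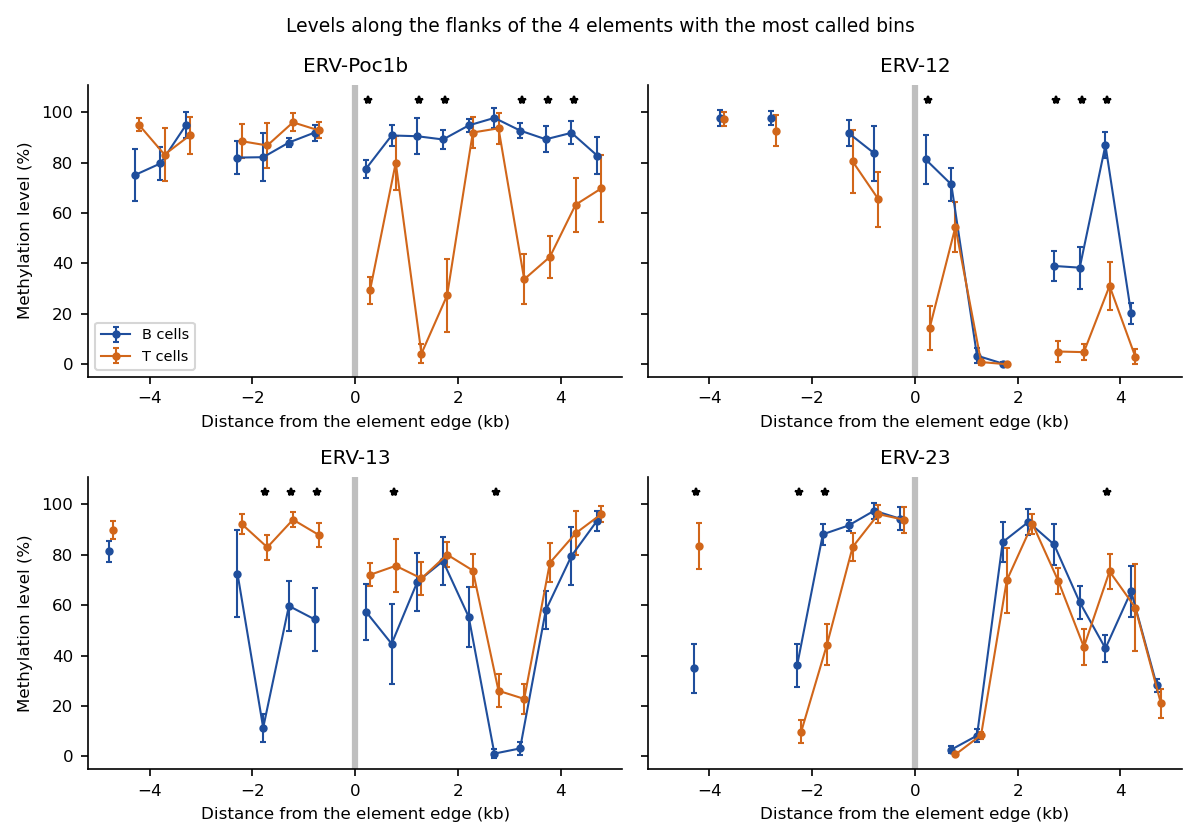
Methylation level in percent (mean ± SD over libraries) along the flanks of the 4 elements with the most called bins, for B cells in blue and T cells in orange, against distance from the edge in kb (negative on the lower-coordinate side, the element itself drawn as the grey line). Stars mark called bins; ERV-Poc1b and ERV-12 fall in T cells in called bins, ERV-13 falls in B cells, and ERV-23 has both directions.

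At ERV-13 the direction was reversed. This ERVL copy of 406 bp, chr4:59816007-59816412, lies in an intron of Snx30, a sorting nexin gene, and 5 of its 15 bins were called, all higher in T cells and on both sides. The bin 1500 to 2000 bp beyond the lower-coordinate edge (chr4:59814007-59814506, 8 CpGs) had B cell libraries from 3.85% to 18.6%, median 10.5%, and T cell libraries from 75% to 90%, median 84.1%. With no overlap, the means were 11.4% ± 5.55 and 83.0% ± 5.07 (SD, n = 8 each), a difference of -71.6 points (adjusted p = 7.47e-08 by the quasi-binomial model and, unadjusted, p = 0.000155 by the exact permutation test, its smallest possible value). On the other side, from 2500 to 3000 bp, B cells had 1.15% ± 1.66 and T cells 26.1% ± 6.56 (SD, n = 8 each), so that here the higher cell type was itself mostly unmethylated. One of the 5 called bins, 500 to 1000 bp beyond the higher-coordinate edge, overlapped between the cell types.

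ERV-23, an ERVL copy of 525 bp at chr15:101252694-101253218, lies 1313 bp from the start of Nr4a1, a nuclear receptor gene induced by antigen receptor signalling. The start of Nr4a1 was unmethylated in both cell types, at 8.27% in B cells against 8.50% in T cells, and 4 bins around it were called in both directions. From 1500 to 2000 bp beyond the lower-coordinate edge, B cells had 88.2% ± 4.15 and T cells 44.4% ± 8.23 (SD, n = 8 each), and in the next bin 36.2% ± 8.55 and 9.90% ± 4.56. Farther out, from 4000 to 4500 bp, the order turned, with 34.9% ± 9.77 in B cells against 83.5% ± 9.09 in T cells. In an Nr4a1 intron, from 3500 to 4000 bp beyond the other edge, T cells were again higher, at 73.4% ± 6.91 against 42.9% ± 5.34 (SD, n = 8 each). None of these 4 bins overlapped between B and T cell libraries (exact permutation p = 0.000155 for each, the smallest possible).

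Sharp differences stood at 3 further elements among the 10 largest. In a UTR of Zfp60, a zinc finger gene, the bin 3000 to 3500 bp beyond the lower-coordinate edge of ERV-25 (chr7:27740751-27741250) had B cell libraries from 90% to 100% and T cell libraries from 16.3% to 38.5%, with means of 96.3% ± 3.10 and 26.7% ± 6.27 (SD, n = 8 each). Its difference of 69.7 points stood alone, with 0 calls in the other 11 bins of ERV-25. Between genes, the bin 500 to 1000 bp beyond the higher-coordinate edge of ERV-24 (chr7:49731845-49732344) had 20.6% ± 5.98 in B cells against 88.7% ± 4.08 in T cells, and the bin between it and the element was also called, at 58.7% and 88.2%. The bin 1000 to 1500 bp beyond ERV-Gtf2a1l (chr17:88665912-88666411), 2499 bp from the start of Gtf2a1l, a germ cell-expressed relative of a general transcription factor, had 28.5% ± 8.44 in B cells against 86.5% ± 5.02 in T cells. Libraries of the 2 cell types did not overlap at any of these 3 named bins (quasi-binomial adjusted p = 2.35e-07, 1.57e-07 and 1.99e-06; exact permutation p = 0.000155 for each, the smallest possible).

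The last of the 10 lay 4000 to 4500 bp beyond ERV-21 in an intron of Ppp2r5a, which encodes a regulatory subunit of protein phosphatase 2A (chr1:191389886-191390385). Levels there ran from 73.3% to 100% in B cells, and those in T cells from 22.0% to 57.8%, with means of 90.8% ± 8.16 and 39.9% ± 13.8 (SD, n = 8 each; difference 50.9 points, quasi-binomial adjusted p = 0.000125; exact permutation p = 0.000155). ERV-11 had a called bin that was nearly unmethylated in B cells, 1.46% ± 1.75 (SD, n = 6), and partly methylated in T cells, 31.9% ± 9.50 (SD, n = 8). In 21 of the 29 called bins the lower cell type was under 50%, and in 21 the higher cell type was at 80% or more. In 5 the higher cell type was itself at 50% or less.

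**Figure D4:**
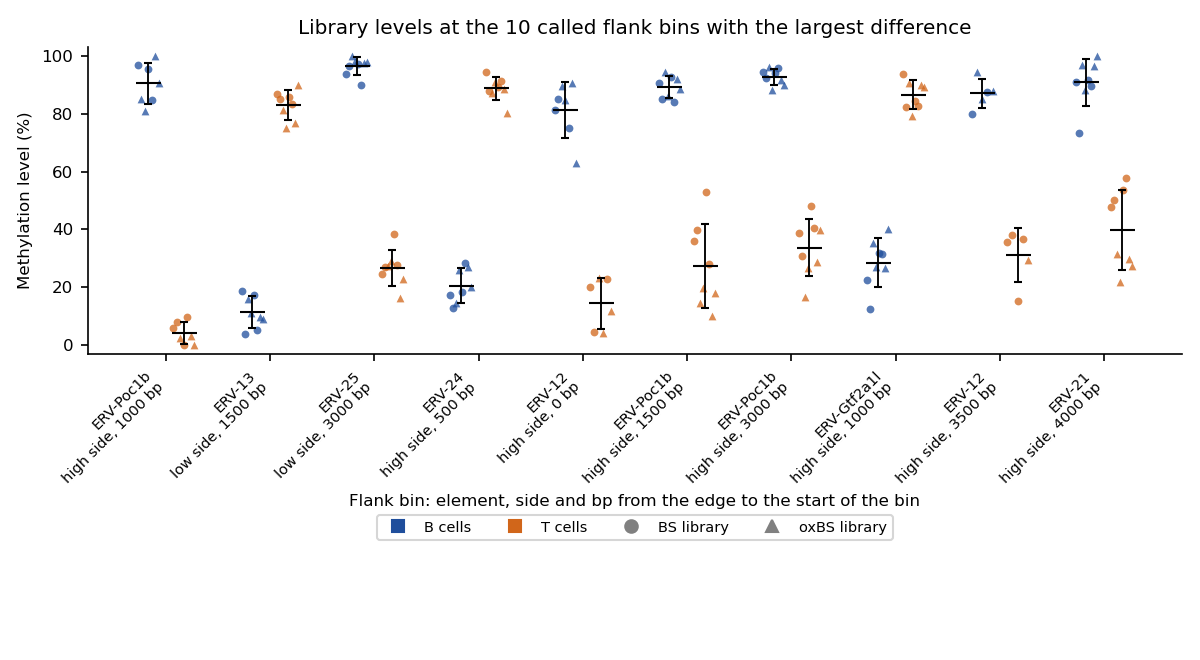
Methylation level in percent of every library with 20 or more calls at the 10 called flank bins with the largest difference; circles are BS and triangles oxBS libraries, and bars give mean ± SD per cell type. B and T cell libraries do not overlap in any of the 10, and the difference runs from 86.3 points at ERV-Poc1b to 50.9 points at ERV-21.

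The 3 calls at ear-variable elements differed by less than each of the 10 largest, and all are given here, the 3 bins having been named after their values were seen. Beyond ERV-Cdkl4, in an intron of the kinase gene Cdkl4 (chr17:80565796-80566295), B cells had 94.1% ± 2.73 and T cells 72.1% ± 9.19 (SD, n = 8 each), with libraries from 89.8% to 97.96% and from 61.6% to 83.1%. The paper states that repeat annotation often splits an intact IAP into parts. Whether this bin is retroviral sequence of the same insertion as ERV-Cdkl4 was not tested. Below ERV-Cep85, in an exon of the centrosome gene Cep85, B cells had 63.7% ± 9.24 (SD, n = 5) and T cells 89.0% ± 7.26 (SD, n = 7). Below ERV-Cln8, between genes, B cells had 70.6% ± 8.95 and T cells 92.1% ± 2.68 (SD, n = 8 each). The groups did not overlap in any of the 3, and the quasi-binomial adjusted p was 0.000315, 0.020 and 0.000224. The smallest of these differences, -21.5 points, was also the smallest called in any flank, and 19 further flank bins with an adjusted p under 0.05 differed by 1.94 to just under 20 points. The count of 3 became 1 without B cell library 3 and 5 without T cell library 7. ERV-Art3, just inside the limit of the ear assay, had 0 calls in 16 bins and mean flank levels of 80.02% in B cells against 79.2% in T cells, and ERV-8, just outside, had 0 calls in 5 bins and 83.0% in both.

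The elements without any call were spread over both classes. Among ear-variable elements they were ERV-Rufy1, ERV-Kcnk12, ERV-Fbxo2, ERV-Scn11a, ERV-Pik3c3, ERV-Slc4a4, ERV-2210039B01Rik, ERV-Rdh7, ERV-Csf2ra, ERV-Sntb1 and ERV-Art3, with 7 to 18 bins each. Among the other elements they were ERV-8, ERV-18, ERV-10, ERV-9, ERV-6 and ERV-2, with 1 to 13 bins each. ERV-6, in the immunoglobulin heavy chain region near Ighv1-54, had a single bin that passed, at 98.6% ± 1.74 in B cells (SD, n = 7) against 98.5% ± 3.28 in T cells (SD, n = 8). Mean flank levels of B and T cells differed by more than 5 points at 1 of 14 ear-variable elements, ERV-Cdkl4, and at 6 of 15 other elements.

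The spread left between libraries after cell type, sex and assay was measured as the dispersion of the model, where 1 is the value for independent calls. Sex and assay each had a single term for both cell types. An assay gap in only 1 cell type can therefore also raise the dispersion, and that part was not separated. Calls at neighbouring CpGs on the same read count separately, so the sampling of reads can also raise it, and that part was not separated. Its median was 1.11 over bins of ear-variable elements, 1.32 over bins of the other elements and 1.07 over all bins tested. Fits of a single assay hold 8 libraries. In BS libraries the median was 1.00 at ear-variable elements, which is the floor of the model, and 1.01 at the other elements. The floor hides how far apart these 2 values lay. In oxBS libraries the order turned, with 1.12 at ear-variable and 1.07 at the other elements. The study chose the elements by the range at their edges in these same libraries, so the bins nearest an edge may share reads with that choice. Bins within 1000 bp of an edge had a median of 1.08 and bins farther out 1.23. Among elements with 5 or more bins, the largest medians were at ERV-21 with 2.37, ERV-13 with 1.79 and ERV-23 with 1.58, all 3 with called bins. The smallest, given without the floor of 1, were at ERV-9 with 0.741, ERV-18 with 0.751 and ERV-Sntb1 with 0.843. At ERV-21 the mean flank level ran from 85.9% to 93.7% over B cell libraries. Over T cells it split by assay, from 83.7% to 89.3% in the 4 BS libraries and from 66.0% to 69.4% in the 4 oxBS libraries.

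T cell levels were also compared between assays. In the 16 called bins higher in B cells, the T cell mean was higher in BS than in oxBS libraries in 16 of 16, with a median gap of 8.38 points, and in the 13 higher in T cells it was so in 11, with a median gap of 4.88 points. Over all 371 flank bins BS was higher in T cells in 69.5%, with a median gap of 1.88 points, and over all bins tested in 61.9%, with a median gap of 0.890 points. In B cells the 16 bins had BS higher in 6, with a median gap of -1.82 points. From 1500 to 2000 bp beyond ERV-Poc1b, T cells had 39.1% ± 10.3 in BS and 15.6% ± 4.22 in oxBS libraries (SD, n = 4 each), and the groups did not overlap. At the named ERV-21 bin they had 52.2% ± 4.43 in BS and 27.6% ± 4.13 in oxBS libraries (SD, n = 4 each), again without overlap. These 2 bins were picked after their values were seen, and the exact permutation p of 0.0286 for each is the smallest that 4 against 4 libraries allow. In a quasi-binomial model over all bins, 0 of 349 flank bins and 0% of all bins passed an adjusted p under 0.05 for BS against oxBS in T cells, with 36 flank bins at an unadjusted p under 0.05. In B cells 0 of 340 passed, with 5 unadjusted. Tests of whether the B minus T difference itself changed with assay or with sex also gave 0 calls in 326 and 328 flank bins, with 37 and 11 at an unadjusted p under 0.05, and 0% of all bins. For these tests the share of all bins at an unadjusted p under 0.05 was not counted, so the unadjusted counts have no background beside them. Because the adjusted tests called 0% of all bins, their 0 calls in the flanks do not show that levels there were alike.

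**Figure D5:**
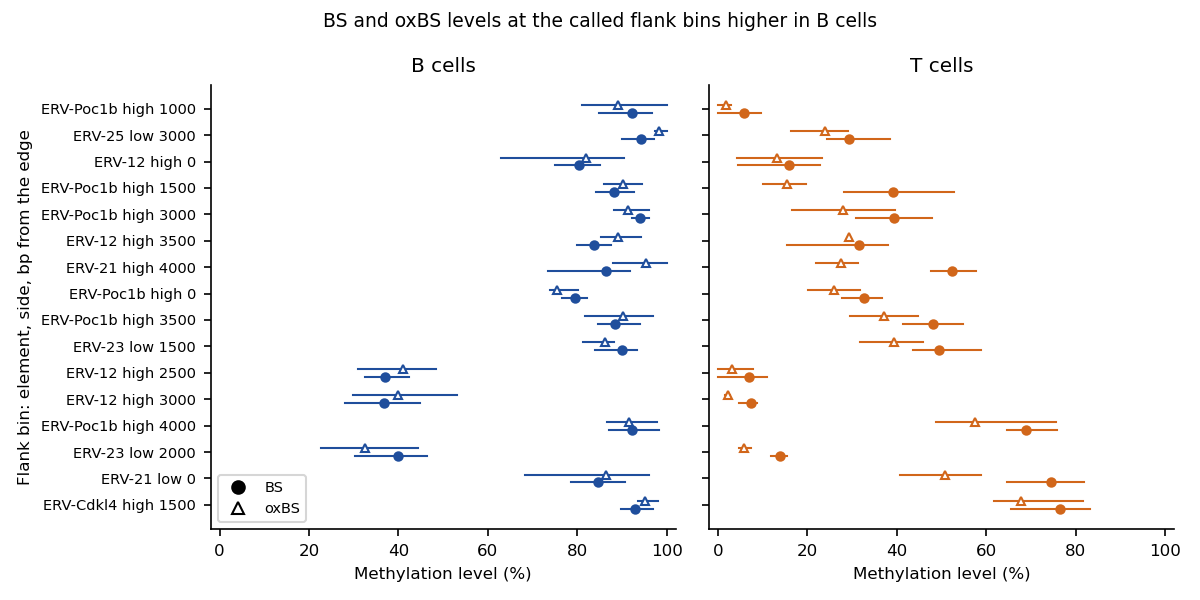
Methylation level in percent in BS (filled circles) and oxBS libraries (open triangles) of B cells (left) and T cells (right) at the 16 called bins higher in B cells; symbols are means and lines run from the lowest to the highest library. In T cells the BS mean is above the oxBS mean in 16 of 16 bins, in B cells in 6.

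The 29 bins were called on all 16 libraries, so their direction within an assay or a sex was largely fixed by that choice, and only the sizes are described. Means of B and T cells differed by 20 points or more in 27 of the 29 among BS libraries alone, in 29 among oxBS libraries, in 26 among female and in 28 among male libraries.

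Short sequences bound by lymphocyte transcription factors were counted in the called bins on both strands. TGTGGT, the core letters of RUNX sites, was in 9 of the 16 bins higher in B cells and 4 of the 13 higher in T cells, against 32.8% of all bins tested. CTTTGA, as in TCF7 and LEF1 sites, was in 5 of 16 and 5 of 13, against 31.7% of all bins, and AGATAA, as in GATA sites, in 5 of 16 and 3 of 13, against 25.1%. AGGAAGT, as in PU.1 sites, was in 2 of 16 and 4 of 13, against 11.9%. ATGCAAAT, the octamer, was in 1 of 16 and 0 of 13, against 3.31%, and CCCNNGGGA, as in EBF1 sites, in 1 of 16 and 1 of 13, against 6.39%. The motifs were chosen with the called bins known, and the matches are a description that was not tested.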

How the data were processed

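Methylated and unmethylated read counts per CpG were deposited by the authors for 16 libraries, made, per the submitters' processing notes and the study's methods, with Trim Galore 0.6.0, Bismark 0.20.0 and SAMtools 1.3.1 on mm10, from alignments of mapping quality 10 or more, with both strands of a CpG combined and no pooling of replicates. Reads carry no molecular identifiers, so the limit for a count of 0 covers counting error only, with calls on the same read taken as independent. Element coordinates, families and the ear class came from the study's supplementary sheet. The strand of the elements was not used, so sides are given by coordinate. Genes were taken from GENCODE vM21 and sequences from the mm10 reference genome.

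Calls were summed per library in 500 bp bins from the element edges and in a fixed grid over the rest of chromosomes 1 to 19. A library counted in a bin with 20 or more calls. Each bin was fitted with a quasi-binomial logistic model (Python 3.11.15, NumPy 2.4.6, numba 0.67.0 and SciPy 1.17.1), with sex and assay as covariates, an F test of the cell type term from the deviance, Pearson dispersion with a floor of 1, and Benjamini-Hochberg adjustment over all bins. The model was also run on simulated calls with known differences, drawn at real depths and with dispersions that the model itself had fitted. Those calls held no assay gap and no libraries that share a mouse, so they cannot show how the model handles either. Levels are means of library percentages with their SD. Flank levels of a single library average only the bins with 20 or more calls in it, so libraries can differ in the bins they hold. Two-sided exact permutation tests over libraries were run for the named bins and are unadjusted.

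The bins named were the 10 called with the largest difference, the 3 lowest at 20% or less (1 per element), the elements with the 3 largest and 3 smallest median dispersions, those nearest the ear limit and those in a lymphocyte or antigen receptor locus. The members, lists and marker genes were chosen with earlier results of these data known. A B cell marker of the list is not reported here. The tests of assay and of interactions, the family split and the alternatives without ERV-Poc1b or ERV-Fbxo2 were added after the data were seen. Alternatives covered call, CpG and difference limits, bin and flank size, covariates, dispersion, pooled calls, each assay and sex, and each library left out.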

Additional observations from a re-analysis of the deposited data

Results flagged for a closer look

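In 9 of 86 groups of 4 to 10 libraries, the highest or lowest library stood apart from the others by Dixon's criterion. Chance alone meets it in about 1 of 20 groups where values are normally distributed. That rate does not hold at the gene starts below, where levels lay near 0% and very few methylated calls can set the flag. At the start of Gimap9 beyond ERV-12, B cell library 2 (male, oxBS) had 1.82% and the other 6 had 0%. At the start of Spidr next to ERV-9, B cell library 9 (female, oxBS) had 1.83% and the next 0.402%. At the start of Ttc26 next to ERV-2, T cell library 15 (female, BS) had 1.27% and the next 0.505%.

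At ERV-13, B cell library 1 (male, BS) had 81.2% in the bin from 1000 to 1500 bp on the lower-coordinate side, where the next had 64.0%, and T cell library 5 (male, BS) had 97.6% from 500 to 1000 bp, where the next had 89.1%. Below ERV-Cep85, B cell library 3 (male, oxBS) had 47.6% and the next 64.3%. In the named ERV-21 bin, B cell library 12 (female, BS) had 73.3% and the next 88.0%. Averaged over the flank of ERV-9, B cell library 1 had 59% and the next 66.1%. That average took only the bins with 20 or more calls in the library. ERV-9 had 6 bins at 80% or more and 2 at 20% or less, so a library that lacks some bins can shift. The part of missing bins in the flagged value was not tested. In the single bin of ERV-6, T cell library 13 (female, BS) had 90.7% and the next 97.4%.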

How the results depend on the processing

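The direction of 0 of the named bins' called differences changed under any alternative run. Of 219 values for single bins, 212 kept their side of the threshold and 7 lost the call, all in fits of a single assay or sex, which hold 8 libraries. These were ERV-12 next to the edge in BS and in oxBS libraries, ERV-21 in BS, female and male libraries, and at ERV-Poc1b the bin from 1000 bp in female and that from 1500 bp in male libraries. A named bin that no longer met the criteria under an alternative gave no value and is not among the 219. With 40 calls per library, values were left only at the named bins of ERV-13 and ERV-24 and at the ERV-Poc1b bins from 1500 and 3000 bp. In male libraries the ERV-12 bin next to the edge gave none. The Gimap9 bin from 3500 bp beyond ERV-12 gave a value in 6 of 16 runs that left out a library, those without a library it did not use, and in 0 of the fits of a single assay or sex. No paired analysis was run, because the labels do not say which libraries share a mouse and no 2 groups share a library number. The tests took all libraries as independent.

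With each library left out in turn, 27 to 32 flank bins were called, 14 to 17 higher in B cells and 12 to 17 in T cells, 23 to 29 at the other elements and 1 to 5 at ear-variable elements, with 1 without B cell library 3 and 5 without T cell library 7. With no limit on the difference, 48 were called, 27 higher in B cells and 21 in T cells, 7 at ear-variable and 41 at the other elements, and limits of 10 and 30 points gave 6 and 0 at ear-variable elements. With 40 calls per library, 16 were called, 8 in each direction, 14 at the other elements, and 106 bins were at 80% or more. BS libraries alone gave 13 calls, 7 higher in B cells and 6 in T cells, and oxBS libraries 15, 4 of them higher in T cells, with 0 and 1 at ear-variable and 13 and 14 at the other elements. Female libraries gave 11, 7 higher in B cells and 4 in T cells, and male libraries 11, 6 and 5, with 0 at ear-variable and 11 at the other elements in each. Flanks of 2 kb gave 15, 7 higher in B cells and 8 in T cells, 1 at ear-variable and 14 at the other elements, with 98 bins at 80% or more and 17 at 20% or less. Calls higher in T cells were 7 with 5 or more CpGs and 6 with bins of 1000 bp, which gave 1 call at ear-variable elements. Bins at 20% or less became 16 at 10% or less with limits of 90% and 10%, 49 with bins of 250 bp and 12 with bins of 1000 bp. Without ERV-Poc1b, an alternative chosen after seeing the data, 10 were higher in B cells.

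The mean flank level at ear-variable elements was above that at the other elements by 1.00 points in B cells and 2.34 in T cells. This became 11.8 and 11.5 with 40 calls, 3.37 and 6.52 with 5 CpGs, 6.62 and 7.46 with bins of 250 bp, 2.62 in B cells with flanks of 2 kb, 4.37 in T cells with oxBS libraries, and 3.88 and 5.14 without ERV-Fbxo2, also chosen after seeing the data. The median dispersion at the other elements, 1.32, was 1.20 with 10 calls, 1.503 with 40, 1.43 with 5 CpGs, 1.01 in BS, 1.07 in oxBS (1.12 at ear-variable elements), 1.16 in female and 1.19 in male libraries and 1.21 with bins of 250 bp. At ear-variable elements it was 1.20 with 40 calls and 1.00, the floor of the model, in BS and in male libraries. Depth limits these flanks, since 59 bins had too few calls.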
